A study of Homo sapiens with 6 samples.

Results

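Fibroblast growth factor 2 (FGF2), the binding protein FGFBP1 and the receptors FGFR1, FGFR2, FGFR3, FGFR4 and FGFRL1 were followed in KYSE-150, a long-established line from a human squamous carcinoma of the oesophagus. These 7 genes were taken by symbol from a table of 50868 genes, and all 7 were found in it. They were chosen by the counts of FGF2, which were strongly lower in the siZNF514 libraries, so their differences between the groups are a description. Where a member is said to lie past a threshold, the same contrast chose it, and the call is no independent test. The study measured gene expression by RNA sequencing in 2 groups of 3 libraries. The siZNF514 group was described by the submitters as a ZNF514 knockout and carries the prefix of a short interfering RNA, an agent that degrades transcripts and leaves the gene in place. The nc group was called wild type, and whether its cells received a control RNA was not given in the sources used here. Both groups were grown in RPMI 1640 with 10% fetal bovine serum, which itself holds growth factors, at 37 °C and 5% CO2. Both came from this 1 cell line, and no label ties the libraries to separate cultures, so the p-values reflect only the spread among 3 libraries of a group, which may be technical.

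FGF2 is a heparin-binding growth factor without a signal peptide, and it leaves the cell by passing directly through the plasma membrane. Outside the cell it is held on heparan sulphate chains, and it activates FGF receptors together with these chains, which starts the RAS, RAF, MEK and ERK kinase cascade inside the cell. FGFBP1 is a secreted carrier that frees FGF2 from the matrix. FGFR1 to FGFR4 are receptor tyrosine kinases, whereas FGFRL1 has the ligand-binding outer part of a receptor and lacks the kinase domain. In epithelia, FGFR2 is usually spliced to the IIIb form, which binds FGF7 and FGF10, while the IIIc form found in mesenchyme binds FGF2. The values here are sums over all transcripts of a gene and do not separate these forms.

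The siZNF514 libraries held 13262363, 13686077 and 14318909 counts, and the nc libraries held 12305102, 13696180 and 12175259. ZNF514 itself was at 5.31 ± 0.871 CPM in siZNF514 and 19.4 ± 1.05 CPM in nc (SD, n = 3 each), which is 27.3% of the nc level. CPM are counts scaled to a library's tested counts times its TMM factor, and 1 count was worth 0.0701 to 0.0789 CPM. The squamous markers were present: TP63 had at least 625 counts and KRT5 at least 5463 in every library, while SOX2 had 0 to 3. Replicate 3 of siZNF514 stood apart in some genes of other cells. COL3A1 had 112 counts there, against 0 in the other siZNF514 libraries and 2 to 5 in the nc libraries, and DCN had 33, against 0 and 0 to 3. COL1A1 was present in every library, at 197, 178 and 312 counts in siZNF514 and 149, 141 and 121 in nc. PDGFRB was instead highest in nc replicate 3, at 18 counts, against 3 in siZNF514 replicate 3. The summed level of 8 fibroblast markers was 40.5 CPM in that library, 14.1 and 16.01 CPM in the other siZNF514 libraries and 11.9 to 13.4 CPM in nc. Squamous markers summed to 1739 to 1823 CPM in siZNF514 and 2091 to 2246 CPM in nc. Simple epithelial markers, mostly KRT8 and KRT18, summed to 4119 to 4946 CPM in siZNF514 and 3054 to 3384 CPM in nc. Single markers went both ways. Of 9 tested squamous markers, 1 was called higher and 5 lower. Of 5 tested simple epithelial markers, 3 were called higher and 1 lower. KRT7 was at 16.4, 15.2 and 17.5 CPM in the siZNF514 libraries, against 35.7, 29.6 and 49.7 CPM in nc. Endothelial markers summed to 3.30 to 4.002 CPM in siZNF514 and 4.50 to 5.68 CPM in nc. Immune markers, mostly CD68, summed to 48.8 to 58.1 CPM in siZNF514 and 56.1 to 68.4 CPM in nc. Within that list, LYZ had 49 counts in siZNF514 replicate 3, against 0 in the other siZNF514 libraries and 2 to 7 in nc. CD14 had 13 counts in siZNF514 replicate 3, against 0 and 1 in the other siZNF514 libraries and 4 to 11 in nc. The simple epithelial KRT19 had 32 counts in siZNF514 replicate 3, against 1 and 0 in the other siZNF514 libraries and 3 to 9 in nc. The part of these shifts in the values below was not tested. List counts and calls that changed without siZNF514 replicate 3 are given both ways below. In bulk RNA, fewer cells of a type and less RNA per cell cannot be told apart.

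The sequences just before the gene starts of FGF2, FGFBP1 and FGFR2, the members with the most counts beside FGFRL1, are shown. That of FGFBP1 differs in composition from those of FGF2 and FGFR2. The sequences were read from RefSeq on GRCh38.p14, on the strand of each gene. They end at the base before the gene start in the deposited table. The FGF2 window is chr4:122826581-122826707 (plus strand), the FGFBP1 window is chr4:15938741-15938990 (minus strand) and the FGFR2 window is chr10:121598459-121598694 (minus strand). Capitals mark GC boxes, searched as GGGCGG on both strands, that is also as CCGCCC.
FGF2: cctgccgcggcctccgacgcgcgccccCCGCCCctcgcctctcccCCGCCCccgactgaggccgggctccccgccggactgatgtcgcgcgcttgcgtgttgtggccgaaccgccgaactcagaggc
FGFBP1: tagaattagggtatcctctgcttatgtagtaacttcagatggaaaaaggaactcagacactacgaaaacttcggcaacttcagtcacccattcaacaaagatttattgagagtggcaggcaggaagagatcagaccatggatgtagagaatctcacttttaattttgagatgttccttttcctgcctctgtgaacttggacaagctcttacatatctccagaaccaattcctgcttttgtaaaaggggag
FGFR2: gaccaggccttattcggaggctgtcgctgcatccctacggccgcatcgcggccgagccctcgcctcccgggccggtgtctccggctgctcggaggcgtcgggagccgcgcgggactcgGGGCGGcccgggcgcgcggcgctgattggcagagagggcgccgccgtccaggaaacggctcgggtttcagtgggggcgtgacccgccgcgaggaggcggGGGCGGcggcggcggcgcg
The FGF2 window was 78.0% G and C over 127 bases and held 2 GC boxes, where 21.8% of 35116 RefSeq promoters hold any in the same window. The FGFR2 window was also 78.0% G and C and held 2 GC boxes, and 40.9% of promoters hold any in that window. The FGFBP1 window was 40.8% G and C, below the median of 58.0% for all promoters, and held no GC box. The FGF2 window covers positions -250 to -124 from the RefSeq start, so the bases nearer that start were not searched. FGFR2 has 5 RefSeq windows, and only the stretch shown was searched. None of the 3 windows held TATAAA or the AP-1 motif TGANTCA on either strand. Those are found in 5.51% and 3.16% of all promoters in the FGF2 window, and in 10.7% and 6.57% in the FGFBP1 window. A match is a description of letters and not a site of binding.

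FGF2 was far lower in siZNF514. FGF2 (ENSG00000138685; hg38 chromosome 4, 122826708 to 122898236, plus strand) had 333, 369 and 339 counts in the siZNF514 libraries, against 1525, 1667 and 1596 in the nc libraries. These are 26.1, 28.3 and 24.8 CPM in siZNF514, against 118, 117 and 126 CPM in nc. Every siZNF514 library lay far below every nc library, and the libraries of a group were close to each other. The mean was 26.4 ± 1.74 CPM in siZNF514 and 120.4 ± 4.83 CPM in nc, which is 21.9% of the nc level, and the log2 fold change was -2.19 (SE 0.07). Leaving out each library in turn gave -2.23 to -2.14, and -2.14 was the value without siZNF514 replicate 3. FGF2 transcript remained in all siZNF514 libraries, at 333 counts or more.

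FGFBP1 was slightly lower in siZNF514. FGFBP1 (ENSG00000137440; chromosome 4, 15935569 to 15938740, minus strand) had 105, 108 and 116 CPM in the siZNF514 libraries, against 120.1, 124 and 138 CPM in nc. The groups did not overlap, but the highest siZNF514 library was close to the lowest nc library. The means were 109.4 ± 5.56 CPM in siZNF514 and 128 ± 9.42 CPM in nc, 85.7% of the nc level, with a log2 fold change of -0.22 (SE 0.07). It lay past the adjusted p threshold of 0.05, but no longer without nc replicate 2, nc replicate 3, siZNF514 replicate 1 or siZNF514 replicate 2. Its values without these libraries ran from -0.24 to -0.16. The relative FGFBP3 was at 95 counts summed over siZNF514 and 104 over nc, and FGFBP2 had no count in any library.

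Among the 4 kinase receptors, FGFR2 and FGFR4 were slightly lower in siZNF514, FGFR3 overlapped between the groups and FGFR1 was barely detected. FGFR2 (ENSG00000066468; chromosome 10, 121478334 to 121598458, minus strand) had 69.8, 70.0 and 72.0 CPM in the siZNF514 libraries, against 80.0, 72.9 and 79.6 CPM in nc. Every siZNF514 library lay below every nc library, although siZNF514 replicate 3 and nc replicate 2 almost met. The means were 70.6 ± 1.19 CPM in siZNF514 and 77.5 ± 3.99 CPM in nc (log2 fold change -0.13, SE 0.06). That difference was not past the threshold, except without nc replicate 2 (-0.17) and under the alternatives listed with the processing.

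FGFR4 (ENSG00000160867; chromosome 5, 177086886 to 177098144, plus strand) had 12.8, 14.0 and 13.9 CPM in the siZNF514 libraries, against 16.5, 16.2 and 16.9 CPM in nc. No siZNF514 library reached an nc library. The log2 fold change was -0.28 (SE 0.09), past the threshold with all 6 libraries and with none of the 6 sets of 5. FGFR3 (ENSG00000068078; chromosome 4, 1793307 to 1808872, plus strand) had 71, 51 and 82 counts in the siZNF514 libraries, against 59, 72 and 56 in nc. Its groups overlapped, with the lowest and the highest library both in siZNF514, and the log2 fold change was 0.14 (SE 0.19). FGFR1 (ENSG00000077782; chromosome 8, 38411138 to 38468834, minus strand) had 1, 0 and 0 counts in the siZNF514 libraries and 0, 1 and 0 in nc. Both groups were at or under the limit of 3 counts that a count of 0 allows, so no fold change is given. FGFR1 was also at 0 in siZNF514 replicate 3, the library with the highest summed level of fibroblast markers. The receptors PDGFRA and PDGFRB of that marker list had only 5 and 3 counts in that library. A count of 0 for FGFR1 therefore says little about RNA of other cells.

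FGFRL1 was higher in siZNF514. FGFRL1 (ENSG00000127418; chromosome 4, 1009936 to 1026897, plus strand) had 896, 903 and 769 counts in the siZNF514 libraries, against 536, 646 and 580 in nc. These are 70.3, 69.2 and 56.4 CPM in siZNF514, against 41.6, 45.3 and 45.8 CPM in nc. The groups did not overlap, and siZNF514 replicate 3 was the lowest of its group. The means were 65.3 ± 7.76 CPM in siZNF514 and 44.2 ± 2.28 CPM in nc, 148% of the nc level, with a log2 fold change of 0.56 (SE 0.10). Without siZNF514 replicate 3 the log2 fold change was 0.67, the highest of the values with 1 library left out, and the lowest was 0.52.

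Of the 7 members, 6 passed the filter on low counts. Of these, 3 lay past the threshold as lower (FGF2, FGFBP1 and FGFR4) and 1 as higher (FGFRL1), beside 50.6% of all 14250 tested genes past it, 25.1% lower and 25.5% higher. The groups did not overlap for 5 of the 6, beside 60.3% of all tested genes. Nothing is read from these counts, since the contrast chose the members. Without siZNF514 replicate 3, 3 members lay past the threshold.

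**Figure D1:**
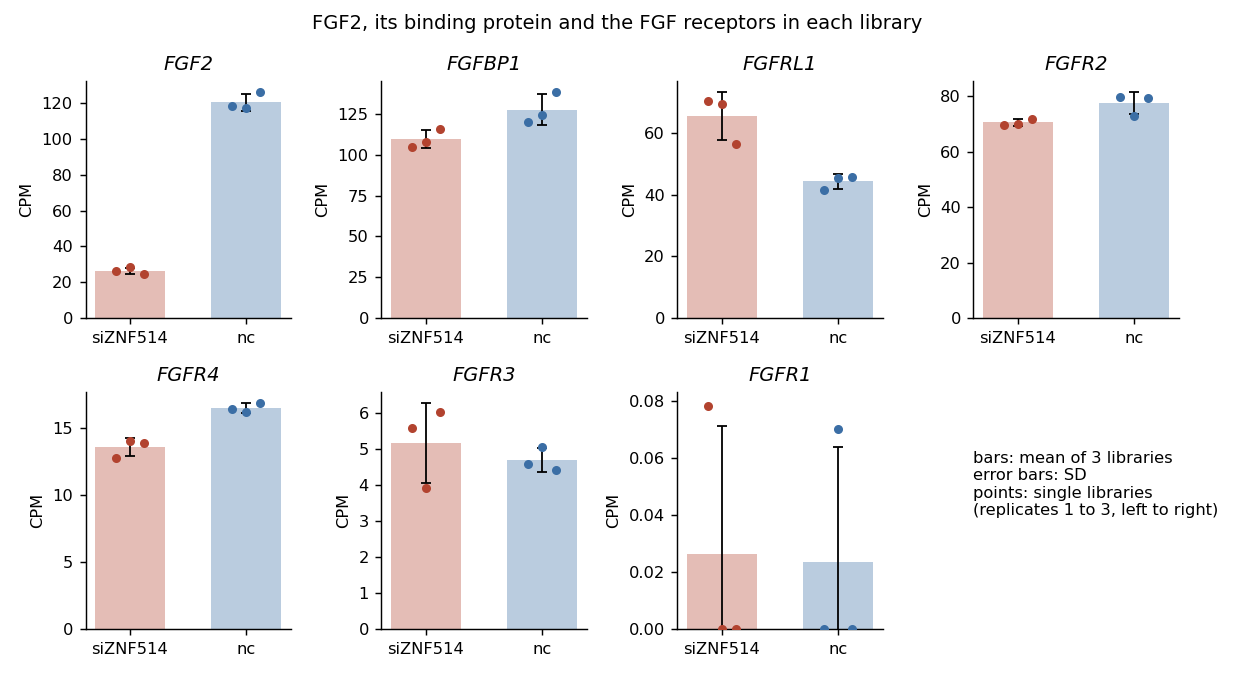
Each panel shows 1 gene, with CPM on a linear axis from 0. Bars are means of 3 libraries, error bars are SD and points are libraries, siZNF514 on the left and nc on the right. FGF2 stands at 26.4 CPM in siZNF514 and 120.4 CPM in nc, and FGFRL1 is the panel in which all siZNF514 points lie above all nc points. The FGFR1 axis reaches only 0.08 CPM because 1 count is worth about that much.

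Levels were compared between receptors only per length. In deposited FPKM, FGFRL1 was highest at 7.29 ± 0.886 in siZNF514 and 5.39 ± 0.261 in nc. FGFR2 followed at 3.28 ± 0.0480 in siZNF514 and 3.93 ± 0.210 in nc. FGFR4 was at 1.33 ± 0.0611 in siZNF514 and 1.76 ± 0.0364 in nc, and FGFR3 at 0.517 ± 0.111 in siZNF514 and 0.511 ± 0.0353 in nc. These 4 levels were separated by more than their SD in both groups, and FGFR1 came last at no more than 0.00201 FPKM in any library. FGFR2 made up 63.0% to 64.9% of the summed FPKM of FGFR1 to FGFR4 in siZNF514, and 61.8% to 64.3% in nc. FGFRL1 was 1.55, 1.54 and 1.19 times that sum in the siZNF514 libraries, against 0.803, 0.923 and 0.882 times in nc, and these ratios rest on the lengths behind the FPKM.

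The place of FGFRL1 and FGFR2 in that order depended on the gene length. The length behind the deposited FPKM was 8.56 kb for FGFRL1 and 20.5 kb for FGFR2, against 3.64 kb and 4.37 kb for their longest coding transcripts in GENCODE 29. Over 14194 genes, the implied length was within 1% of the summed length of all distinct exons for 87.3%, so that overlapping exons of different transcripts count repeatedly and genes with many transcripts get a low FPKM. Per kb of the longest coding transcript, a scale added after the data had been seen, FGFRL1 was at 17.9 ± 2.13 CPM per kb in siZNF514 and 12.2 ± 0.626 in nc. FGFR2 was at 16.2 ± 0.272 CPM per kb in siZNF514 and 17.7 ± 0.914 in nc. On this scale the 2 genes did not differ beyond their spread in siZNF514, and FGFR2 was the higher in nc. FGFR4, at 4.35 ± 0.220 CPM per kb in siZNF514 and 5.29 ± 0.110 in nc, and FGFR3, at 1.16 ± 0.25 in siZNF514 and 1.06 ± 0.0739 in nc, kept their places. FGFRL1 was then 0.905, 0.889 and 0.695 times the sum of FGFR1 to FGFR4 in the siZNF514 libraries, against 0.465, 0.541 and 0.511 times in nc, below that sum in every library.

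**Figure D2:**
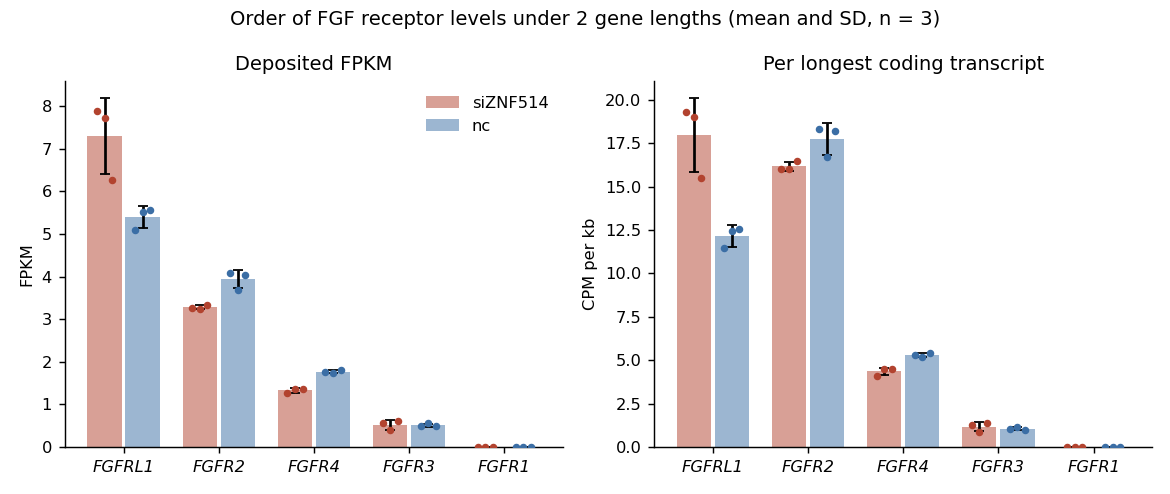
The left panel shows deposited FPKM and the right panel CPM per kb of the longest coding transcript, both on linear axes from 0, for the 5 receptors. Bars are means of 3 libraries, error bars are SD, points are libraries and siZNF514 stands left of nc for each receptor. FGFRL1 is above FGFR2 in both groups on the left (7.29 and 3.28 FPKM in siZNF514), while in nc on the right FGFRL1 is at 12.2 and FGFR2 at 17.7 CPM per kb.

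FGF2 was the main FGF ligand transcript in both groups. Of 18 ligand genes, FGF2 held 81.6%, 76.9% and 76.9% of the counts in the siZNF514 libraries, against 89.8%, 90.6% and 92.6% in nc. By deposited FPKM, which accounts for length as the authors set it, the share of FGF2 was 73.9%, 66.2% and 69.4% in the siZNF514 libraries, against 86.0%, 83.9% and 88.3% in nc. FGF1 made up 17.7%, 20.1% and 22.5% of that sum in the siZNF514 libraries, against 10.8%, 8.92% and 7.43% in nc. FGF1, a ligand that binds all 4 kinase receptors, was the only other ligand past the filter. FGF1 had 69, 97 and 95 counts in the siZNF514 libraries, against 166, 153 and 116 in nc, and the groups did not overlap. FGF1 fell in siZNF514, at 6.60 ± 1.06 CPM there and 10.9 ± 1.88 CPM in nc (log2 fold change -0.72, SE 0.18, adjusted p = 0.0127 in the edgeR quasi-likelihood test over all tested genes). The remaining ligands summed to 27 counts in siZNF514 and 40 in nc. FGF10 had no count in any library and FGF7 had 3 counts in siZNF514 and 0 in nc.

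The FGF homologous factors share the fold of FGFs but stay in the cell and bind sodium channels. FGF13 had 4, 7 and 1 counts in the siZNF514 libraries, against 18, 13 and 11 in nc, and fell (log2 fold change -1.76, SE 0.54, edgeR adjusted p = 0.0288). That call was lost in 5 of the 6 fits with 1 library left out, among them the fit without siZNF514 replicate 3 (-1.28). FGF11 had 148, 263 and 319 counts in the siZNF514 libraries, against 294, 131 and 154 in nc, and did not pass the test.

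Of the 6 tested co-receptors and membrane partners, 2 rose and 2 fell, which is 66.7% past the threshold, beside 50.6% of all tested genes. The list median was -0.01, the same as the median of all tested genes. The cell adhesion molecules L1CAM (0.32, SE 0.05) and CD44 (0.28, SE 0.08) rose. FLRT2, of a family of receptor-binding leucine-rich repeat proteins (-0.50, SE 0.14), and the integrin subunit ITGAV (-0.40, SE 0.06) fell. The call of FLRT2 was lost without nc replicate 1, nc replicate 3 or siZNF514 replicate 2, and that of CD44 without siZNF514 replicate 2. With total counts in place of TMM scaling, CD44 was not past the threshold (0.16). KL and KLB, which encode the klotho co-receptors of the endocrine FGFs, had no count in any library.

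Among genes for the export of FGF2 through the membrane, TEC rose and GPC1 did not pass the test. TEC, the kinase that phosphorylates FGF2, had 108, 95 and 78 counts in the siZNF514 libraries, against 55, 57 and 48 in nc (0.83, SE 0.18, edgeR adjusted p = 0.00721). GPC1, a heparan sulphate proteoglycan on the outer side, had 1117, 1160 and 850 counts in the siZNF514 libraries, against 643, 739 and 1249 in nc. The groups overlapped through nc replicate 3, and GPC1 did not pass the test (0.25, SE 0.28), except without that library (0.65).

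Of 10 tested heparan sulphate core proteins, 2 rose, 3 fell and 5 did not pass the test, with a median of -0.06, beside 50.6% of all tested genes past the threshold. The counts were 2 and 2 without siZNF514 replicate 3. SDC1, the main syndecan of epithelia, had 584, 600 and 588 counts in the siZNF514 libraries, against 2877, 3800 and 2308 in nc. Every siZNF514 library was far below every nc library, and SDC1 fell to 45.0 ± 1.63 CPM in siZNF514, against 224 ± 42.2 CPM in nc (log2 fold change -2.32, SE 0.13, edgeR adjusted p = 2.55e-05). SDC3 also fell (-0.50, SE 0.17), but its call was lost without nc replicate 1 or 2 or without any siZNF514 replicate. COL18A1, a basement membrane collagen that carries heparan sulphate (0.83, SE 0.07), and SRGN, the proteoglycan of secretory granules (1.20, SE 0.24), rose. SRGN had few counts, at 42, 28 and 37 in the siZNF514 libraries, against 13, 18 and 16 in nc. With only genes of 50 counts on average kept, SRGN was left out and 1 core protein rose.

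Of 19 tested genes for heparan sulphate synthesis and editing, 4 rose and 8 fell. That is 63.2% past the threshold, beside 50.6% of all tested genes (25.5% higher and 25.1% lower). The list median was -0.24, against -0.01 for all tested genes. Without siZNF514 replicate 3, 4 rose and 5 fell. The galactosyltransferases of the chain linker, B3GALT6 (-1.19, SE 0.10) and B4GALT7 (-0.73, SE 0.17), fell, and so did the sulphotransferase NDST1 (-0.84, SE 0.06). NDST1 was at 99.8 ± 5.07 CPM in siZNF514 and 179 ± 7.87 CPM in nc. The xylosyltransferase XYLT2, which starts the chain, rose (0.65, SE 0.08).

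Among 28 adaptors and kinases below the receptors, 11 rose, 3 fell and 14 did not pass the test, with a median of 0.11, beside 50.6% of all tested genes past the threshold (25.5% higher and 25.1% lower). The counts were 9 and 3 without siZNF514 replicate 3. This balance changed with the scaling: with total counts alone 6 rose and 6 fell. It also changed with single libraries, to 6 that rose without nc replicate 1 and 7 without siZNF514 replicate 1. The docking protein GAB1 (0.77, SE 0.09), the kinase BRAF (0.68, SE 0.07) and the adaptor CRKL (0.48, SE 0.04) rose. MAP2K1, which encodes the ERK kinase MEK1, fell to 95.1 ± 5.71 CPM in siZNF514, against 159 ± 8.96 CPM in nc (-0.74, SE 0.06). FRS2, the docking protein that binds FGF receptors directly, was uneven, with 160, 180 and 594 counts in the siZNF514 libraries and 317, 1064 and 270 in nc, and did not pass the test.

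Of 22 tested feedback genes and transcription targets of FGF and ERK signalling, 10 rose and 4 fell. That is 63.6% past the threshold, beside 50.6% of all tested genes (25.5% higher and 25.1% lower). The list median was 0.41, against -0.01 for all tested genes. The counts were 10 and 4 without siZNF514 replicate 3, and 10 and 7 with total counts alone. The immediate early transcription factor EGR1 had 253, 204 and 219 counts in the siZNF514 libraries, against 694, 775 and 643 in nc, and fell (log2 fold change -1.63, SE 0.10, edgeR adjusted p = 3.45e-05). The ERK phosphatase DUSP7 also fell (-0.87, SE 0.07). SPRY4, an inhibitor of receptor tyrosine kinase signalling, had 188, 184 and 186 counts in the siZNF514 libraries, against 135, 93 and 86 in nc, and rose (0.84, SE 0.19). The ERK phosphatase DUSP5 rose as well (0.77, SE 0.08). Further genes that rose, named after their values were seen, were the inhibitors SPRY2 (0.71), DUSP6 (0.55) and IL17RD (0.50), the transcription factors ETV4 (0.65), ETV5 (0.62) and FOSL1 (0.39), and SPSB1 (0.69) and IER3 (0.46). The other genes of the list that fell, named likewise after their values were seen, were the ERK phosphatase DUSP4 (-0.20) and PHLDA1 (-0.24). The inhibitors SPRED1 (-0.14), SPRED2 (-0.14) and SPRED3 (-0.33) did not pass the test. MYC had 491 counts in siZNF514 and 73 in nc, did not pass the test, and had 465 of them in siZNF514 replicate 3.

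Of 6 tested regulators of FGF receptor splicing, 4 rose and none fell, with a median of 0.19, and the same numbers held without siZNF514 replicate 3. That is 66.7% past the threshold, beside 50.6% of all tested genes (25.5% higher and 25.1% lower). With total counts alone, and in each of the limma fits, 2 rose. RBFOX2 (0.64, SE 0.04) and PTBP1 (0.86, SE 0.17) rose under both scalings. ESRP1, which drives the epithelial FGFR2 form, was at 114 ± 2.85 CPM in siZNF514 and 97.1 ± 3.61 CPM in nc (0.23, SE 0.05, edgeR adjusted p = 0.00599), but at 0.11 and not past the threshold with total counts alone, and KHSRP (0.16, SE 0.04) was at 0.03 there. ESRP2 did not pass the test (0.14, SE 0.11). Of 17 tested receptor tyrosine kinases outside the FGF family, 3 rose and 5 fell, with a median of -0.10, so 8 of the 17 passed the test, beside 50.6% of all tested genes. Without siZNF514 replicate 3, 2 rose and 5 fell, and with total counts alone and in the limma fits 1 rose. MERTK (-1.12, SE 0.26) and EGFR (-0.60, SE 0.07) fell, and the collagen receptor DDR1 rose (0.55, SE 0.08).

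Over all 10 lists together, 38 of 113 tested genes rose and 27 fell, which is 57.5% past the threshold, beside 50.6% of all tested genes. Without siZNF514 replicate 3 the counts were 35 and 22. TMM scaling left the median of all genes at -0.01, and total counts alone moved it to -0.14, so all fold changes here are relative to the bulk of genes.

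**Figure D3:**
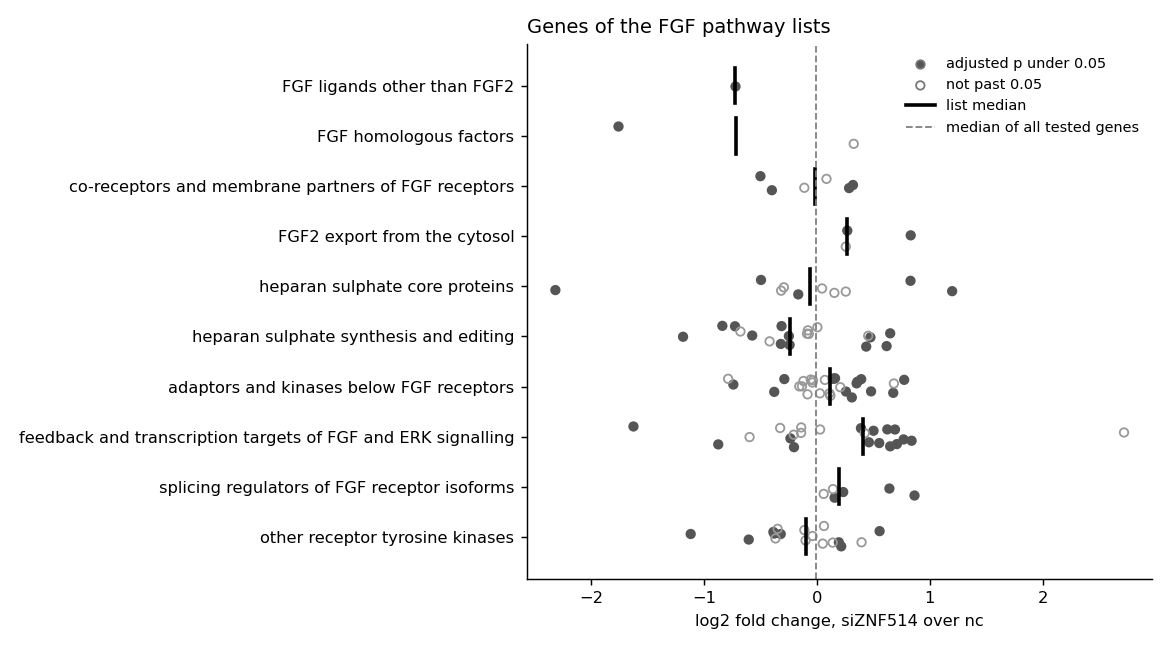
Each point is a tested gene at its log2 fold change, siZNF514 over nc, on the horizontal axis, and each row is a list. Filled points have an adjusted p under 0.05, black bars are list medians and the dashed line is the median of all tested genes (-0.01). The list of feedback and transcription targets has its bar at 0.41 with EGR1 alone beyond -1 on the left. The open point beyond 2.5 is MYC.

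The gene NUDT6 lies antisense to FGF2, and their annotated ranges overlap at the ends (NUDT6: chromosome 4, 122888697 to 122922968, minus strand). NUDT6 had 91, 79 and 57 counts in the siZNF514 libraries, against 48, 68 and 95 in nc. The groups overlapped and NUDT6 did not pass the test (log2 fold change 0.12, SE 0.30), and its sign turned without nc replicate 1, without siZNF514 replicate 1 and with total counts alone. Whether counting used strand was not given in the sources used here, so reads of FGF2 and NUDT6 in the shared stretch cannot be told apart. The next gene, SPATA5, 24838 bases from FGF2, had 24.1 ± 1.46 CPM in siZNF514 and 22.4 ± 0.878 CPM in nc and did not pass the test (0.10, SE 0.08). Beside FGFRL1, IDUA, a lysosomal enzyme that degrades heparan sulphate, lies 5430 bases away and fell (-1.29, SE 0.24, edgeR adjusted p = 0.00378), whereas FGFRL1 was higher. Beside FGFR4, ZNF346 lies 5697 bases away and fell (-1.17, SE 0.11), and NSD1 on the other side was at 0.01. Beside FGFR3, LETM1 was at 0.10 and not past the threshold, and TACC3, 48131 bases away, rose (0.38, SE 0.06). Beside FGFR1, which had no more than 1 count in any library, NSD3 (-0.26, SE 0.05) and LETM2 (-0.42, SE 0.14) fell, although LETM2 kept its call in only 1 of the 6 fits with 1 library left out and lost it without siZNF514 replicate 3 (-0.34).

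The genes whose 6 library values were nearest to those of FGF2 were sought among 11603 tested genes with 50 or more counts on average. The measure was the root mean square difference in log2 CPM, each gene relative to its nc mean, so a small value mostly means a like difference between the groups. The nearest were AL365205.1 (0.0991), the caveolar protein gene CAV1 (0.102), the aldose reductase gene AKR1B1 (0.121), the endoplasmic reticulum chaperone gene HSPA5 (0.138) and the lipocalin gene LCN2 (0.140). They span levels from 3.81 CPM in siZNF514 and 17.0 CPM in nc for LCN2 to 852 CPM in siZNF514 and 3444 CPM in nc for HSPA5. Among the 5 nearest to FGFRL1 were the mitochondrial ribosomal protein gene MRPL36 (0.0294), RPGR (0.0511) and IQGAP1 (0.0627). For these 3, as for FGFRL1, siZNF514 replicate 3 was the lowest library of its group. The search used the value of that library, so this likeness follows from how the genes were picked.

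**Figure D4:**
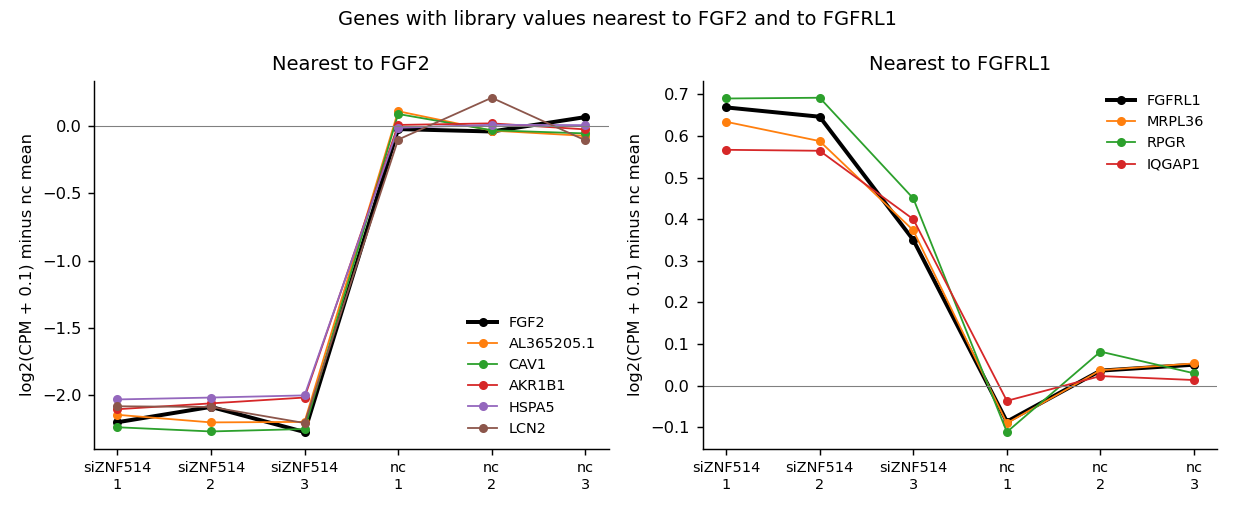
Lines join the 6 libraries of each gene, siZNF514 to the left of nc, at log2(CPM + 0.1) minus the mean of the nc libraries. In the left panel FGF2 (black) and its 5 nearest genes stand at about -2 in siZNF514. In the right panel FGFRL1 (black) and 3 of its 5 nearest genes come down at siZNF514 replicate 3, a library whose values the search used.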

How the data were processed

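RNA sequencing of 3 siZNF514 and 3 nc libraries was analysed from 1 table with a count column and an FPKM column for each library. Libraries were made with a VAHTS kit and sequenced on a NovaSeq, per the labels. HISAT2 2.0.4, StringTie 1.3.3b, edgeR and the build hg38 are named in the submitters' processing notes. An annotation release was not given in the sources used here, nor was a strand setting. The deposited counts were whole numbers with no normalization, and the deposited FPKM were those counts divided by the library total and by 1 length per gene, as computed by the authors.

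Members and lists were chosen with earlier results of these data known. Genes were filtered with filterByExpr (at least 10 counts and a total of 15), which kept 14250 genes holding 99.8% or more of the counts, and scaled by TMM factors of 0.954 to 1.05. siZNF514 was compared with nc by the quasi-likelihood test of edgeR 4.0.16 (R 4.3.3) (4 residual degrees of freedom), adjusted over all tested genes by Benjamini-Hochberg at 0.05. The SE was taken from the fold change and its F value, as the size of the log2 fold change over the root of F. In simulated data of this comparison over 14094 genes, 60% of genes changed 1.5-fold, 92% changed 2-fold and 100% changed 4-fold were recovered. Of 50 genes lowered to 0.25-fold, 45 passed the filter, and 100% of these were recovered. The simulation changed only 200 genes and gave every gene the same dispersion, unlike the data, so these shares need not hold there. Replicates of a group differed by more than sampling noise (chi-square per degree of freedom 7.98 to 10.0). Intervals are not given, and the floor of 3 counts covers counting error alone, as no molecular identifiers were used. Sequences and motif shares came from RefSeq on GRCh38.p14, and transcript lengths from GENCODE 29. The genes named were all 7 members, ZNF514, NUDT6, tested ligands, ESRP1, ESRP2, the export genes, up to 4 called genes with the largest change from each other list (3 for other receptor tyrosine kinases), list genes within 50 kb of a member, and the 5 nearest genes. Some genes under this rule are not reported here. Any other was named after its values were seen.

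Alternatives were leaving out each library, scaling by DESeq2 size factors or by total counts alone, keeping every gene with a count above 0 or only genes with 50 counts on average, the Wald test of DESeq2 1.42.0 (with a local dispersion fit), limma 3.58.1 on log2(FPKM + 0.1) and with 1 or 0.01 added, and a replicate block.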

Additional observations from a re-analysis of the deposited data

How the results depend on the processing

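FGF2 was lower in siZNF514 under every alternative run, from -2.31 with total counts alone to -1.77 with limma on log2(FPKM + 1). The number of all genes past the threshold was 7212, 6310 to 6563 with 1 library left out and 6348 to 7427 under the other alternatives. For the members it was 4, 2 with no filter beyond a count above 0, 2 to 3 with 1 library left out and 3 to 5 otherwise. For the 10 lists it was 65, 53 to 57 with 1 library left out and 58 to 66 otherwise. FGFR2 was past the threshold with total counts alone (-0.26), with a mean count of at least 50 (-0.17) and with all limma fits (-0.26 to -0.20). FGFR4 lost its call with the DESeq2 Wald test and with no filter, and FGFBP1 with no filter. FGFRL1 kept its call under every alternative. FGFR3 turned to -0.0026 with 0.1 and to -0.0065 with 0.01 added to FPKM. NUDT6 turned to -0.0060 with total counts alone, and ran from -0.078 without nc replicate 1 to 0.44 without nc replicate 3, with -0.048 without siZNF514 replicate 1. The cause was not tested in any of these.

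The log2 ratio of FGFRL1 over FGFR2 was 1.14 in siZNF514 and 0.45 in nc by deposited FPKM, and with 1 library left out it ran from 1.08 to 1.26 in siZNF514 and from 0.39 to 0.52 in nc. With the longest coding transcript it was 0.14 in siZNF514 and -0.55 in nc, and with the median coding transcript 0.41 in siZNF514 and -0.28 in nc. Only the length differs between these, and both were added after the data had been seen.

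Same-numbered libraries of the groups deviated from their group means with correlations of 0.0075, 0.041 and -0.036, and not every library correlated best with its own number. Whether same-numbered libraries were handled together was not given in the sources used here, and these correlations cannot decide it. With the replicate block, 6640 genes, 3 members and 60 list genes were past the threshold, FGF2 was at -2.19 and FGFR4 at -0.28 and not past it. At these depths 1 count is about 0.07 to 0.08 CPM, so FGFR1 and most FGF ligands were not measurable, and a difference in them is not detectable.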
